A study of Mus musculus with 12 samples.

Results

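The proliferin genes Prl2c2, Prl2c3, Prl2c4 and Prl2c5 were followed in immortalised mouse striatal cells that model Huntington's disease. Every probe of the deposited unnormalized signal table annotated to one of these symbols was taken, which gave 4 of the 44505 probes, 1 for each of 4 of the 17056 gene symbols on the array. The genes were chosen by their measured levels on these same arrays, known from an earlier analysis. Levels and differences of the 4 probes are therefore given as a description, with no test. The 9 gene lists used below were also chosen with earlier results of these data known. Their counts beside the shares of all genes are therefore a description too. The lines come from homozygous knock-in mice with 7 (Hdh7/7) or 109 (Hdh109/109) CAG repeats in the huntingtin gene. Both were grown at 33°C in medium with fetal calf serum. Cells of each line were left untransfected, received an empty vector, or received a construct labelled DNRest, named after the transcriptional repressor REST. This makes 6 groups of 2 arrays. There is 1 line per genotype, so the repeat length and any other difference between the lines cannot be told apart. Cells given transfection reagent alone were not analysed here, so vector and transfection procedure cannot be told apart either. The series text speaks of biological replicates without naming separate cultures, so the spread within a group may be only technical.

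Proliferins are secreted glycoproteins of the prolactin and growth hormone family, a family that has expanded into many gene copies in rodents. They are best known from the trophoblast giant cells of the mouse placenta, where they promote the migration of endothelial cells and blood vessel growth. Their other known source is cultured mouse cells, in which serum and growth factors induce the RNA, hence the older name mitogen-regulated proteins. They bind the mannose 6-phosphate and insulin-like growth factor 2 receptor Igf2r, and their promoters have been studied as targets of AP-1 (Jun and Fos proteins) and of the glucocorticoid receptor.

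The copies are close to each other in sequence, which limits what 1 probe can tell. In the RefSeq gene table of GRCm38.p6, Prl2c2, Prl2c3 and Prl2c5 are 3 separate protein-coding genes on chromosome 13. Prl2c4 is listed there only as a synonym of Prl2c3, and the Entrez identifier of the Prl2c4 probe (26421) has no entry. The probes annotated to Prl2c3 and Prl2c4 may thus read 1 gene. The probe sequences were not used here, so cross-reading between any of the copies cannot be bounded, and the 4 probes are not 4 independent measures. The RefSeq table puts the 3 genes in the order Prl2c3, Prl2c2, Prl2c5 with no other protein-coding gene between them. They lie apart from the other prolactin family genes of the chromosome, with 174 protein-coding genes in between.

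Promoter windows from 250 bases before to 50 bases after the start were found for 2 of the 4 symbols, Prl2c3 and Prl2c5 (RefSeq, GRCm38.p6). They are shown because they let the likeness of the copies be read directly, and because the probe of the first was detected on all 6 Hdh109/109 arrays and that of the second on none of the 12. Capitals mark matches to TGANTCA, a loose pattern used here for AP-1, in which N may be any base. They also mark matches to TATATAA, a motif found near many transcription starts.
Prl2c3, chr13:12800030-12800329, minus strand: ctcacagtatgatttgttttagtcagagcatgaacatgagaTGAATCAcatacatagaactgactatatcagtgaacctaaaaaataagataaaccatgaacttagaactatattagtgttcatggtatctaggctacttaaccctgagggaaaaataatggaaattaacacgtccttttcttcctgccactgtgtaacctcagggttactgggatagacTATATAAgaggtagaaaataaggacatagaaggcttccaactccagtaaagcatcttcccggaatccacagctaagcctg
Prl2c5, chr13:13182466-13182765, plus strand: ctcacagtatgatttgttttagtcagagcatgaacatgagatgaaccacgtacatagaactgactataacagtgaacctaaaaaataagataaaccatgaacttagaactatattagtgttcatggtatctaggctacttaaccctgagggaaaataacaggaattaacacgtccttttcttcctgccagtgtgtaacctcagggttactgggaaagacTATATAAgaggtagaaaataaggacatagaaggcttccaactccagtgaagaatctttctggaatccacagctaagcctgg

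Of 299 aligned bases of these windows, 287 were identical (96%). There were 12 substitutions and 1 gap base. Both held TATATAA, a motif chosen after the sequences were seen and present on either strand in 3.24% of the 32851 RefSeq promoter windows of the same length. The Prl2c3 window held 1 match to TGANTCA, a motif found in 7.81% of all windows. The Prl2c5 window held none, because of the substitution T46C, counted from 1 at the first base of the Prl2c3 window and written from Prl2c3 to Prl2c5. The glucocorticoid receptor half-site TGTTCT, present in 19% of all windows on either strand, was found in neither. The matches did not overlap each other. A match of letters is no evidence of binding.

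Before the results, 3 properties of the arrays bear on every value. An array detected 10295 to 14370 probes at a detection p under 0.01. The median signal was 70.1 to 82.7 on 9 arrays, but 161 on Hdh7/7 empty vector replicate 2, 156 on Hdh109/109 untransfected replicate 2 and 104 on Hdh109/109 DNRest replicate 1. An unnormalized signal must therefore be read against the median of its own array. The source names of 6 arrays contradict their title and genotype field about the line. Groups follow the titles. Arrays of the same title line correlated at r = 0.959 to 0.993 over the 15224 probes tested and arrays of different title lines at r = 0.887 to 0.916. Both untransfected Hdh109/109 arrays are among the 6, and by source name all 4 untransfected arrays would be Hdh7/7.

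The proliferin signal was high in a single group, the untransfected Hdh109/109 cells. The Prl2c3 probe had an unnormalized signal of 653 and 684 on the 2 arrays of this group, and the Prl2c4 probe 423 and 413. The Prl2c2 probe had 308 and 314. On the 6 Hdh7/7 arrays none of the 4 probes was detected. Transfected Hdh109/109 cells lay between these levels for Prl2c3 and Prl2c4. The Prl2c5 probe was not detected on any of the 12 arrays. Of the 4 probes, 3 passed the filter of detection on at least 2 arrays, and Prl2c2 passed it only through the untransfected Hdh109/109 group. Since bulk RNA was measured, more cells that express proliferin and more proliferin RNA per cell cannot be told apart.

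**Figure D1:**
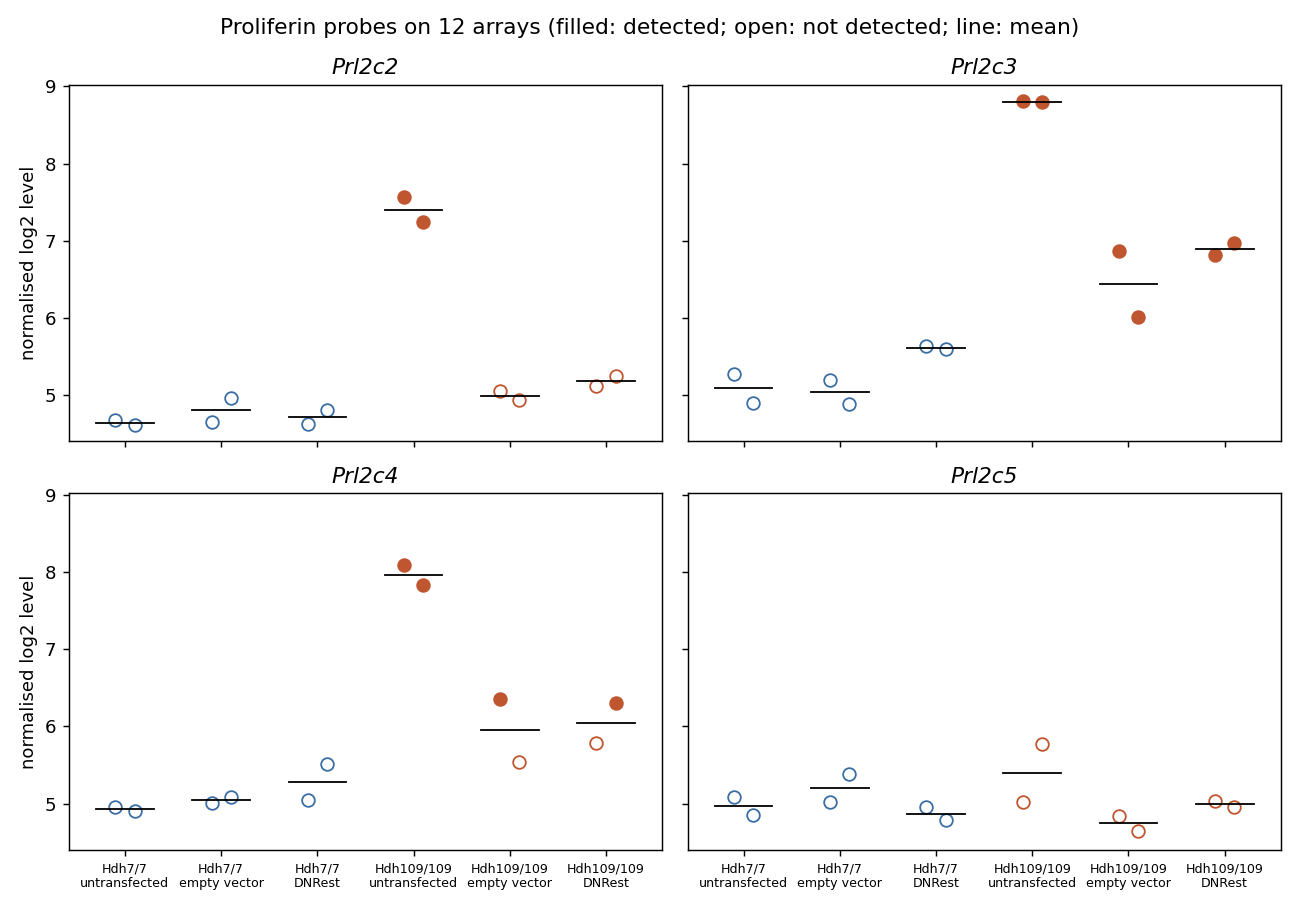
Normalised log2 level of each proliferin probe (vertical axis) on every array, by group (horizontal axis, Hdh7/7 in blue and Hdh109/109 in orange). Filled points were detected, open points were not, and lines are the means of 2 arrays. The untransfected Hdh109/109 arrays stand above all others for Prl2c2, Prl2c3 and Prl2c4, while Prl2c5 has open points only.

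Prl2c3, which encodes the proliferin also known as PLF-2, was the member detected on the most arrays. Its normalised log2 level was 8.81 and 8.79 in untransfected Hdh109/109 cells. Empty vector cells of that line had 6.86 and 6.01, DNRest cells 6.81 and 6.97. In Hdh7/7 cells it was 5.27 and 4.9 untransfected, 5.2 and 4.89 after the empty vector, 5.63 and 5.59 after DNRest. All 6 Hdh109/109 arrays were detected and above all 6 Hdh7/7 arrays, a separation that was not counted over all probes. In order, the group means were 8.8 ± 0.01 (SD, n = 2) in untransfected Hdh109/109 cells, 6.89 ± 0.11 with DNRest and 6.44 ± 0.6 with the empty vector in that line, then 5.61 ± 0.03 with DNRest, 5.09 ± 0.26 untransfected and 5.04 ± 0.22 with the empty vector in Hdh7/7 cells. The 2 transfected Hdh109/109 groups overlapped, as did untransfected and empty vector Hdh7/7 cells. Within each single state, both Hdh109/109 arrays were above both Hdh7/7 arrays for 34.4% to 36.5% of all probes tested.

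The Prl2c4 probe, whose symbol RefSeq now places under Prl2c3, ran almost in parallel. Its log2 level was 8.09 and 7.84 in untransfected Hdh109/109 cells. Empty vector cells of that line had 6.36 and 5.54, DNRest cells 5.79 and 6.31. In each transfected Hdh109/109 group 1 of 2 arrays was detected, and the groups overlapped. In Hdh7/7 cells it was 4.96 and 4.9 untransfected, 5 and 5.08 after the empty vector, 5.04 and 5.51 after DNRest, all undetected. Group means were 7.97 ± 0.18, 6.05 ± 0.37 and 5.95 ± 0.58 (SD, n = 2) in untransfected, DNRest and empty vector Hdh109/109 cells. In Hdh7/7 cells the means were 5.28 ± 0.33, 5.04 ± 0.05 and 4.93 ± 0.04 with DNRest, with the empty vector and untransfected.

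Prl2c2, which encodes proliferin in the original sense (PLF-1), was detected in untransfected Hdh109/109 cells only. Its log2 level there was 7.57 and 7.24. It was 5.06 and 4.93 after the empty vector, 5.12 and 5.25 after DNRest in that line, and 4.67 and 4.61, 4.65 and 4.97, and 4.62 and 4.81 in untransfected, empty vector and DNRest Hdh7/7 cells. Means were 7.4 ± 0.23 (SD, n = 2) in untransfected Hdh109/109 cells and 4.64 to 5.18 in the other 5 groups. Transfected Hdh109/109 cells thus gave no detected signal for this probe, while they did for Prl2c3.

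Prl2c5 (PLF-4) gave no detected signal. Its smallest detection p was 0.0379, on Hdh109/109 untransfected replicate 2. The log2 levels of that group were 5.01 and 5.78, further apart than in any other group, and only the array with the high median signal stood out. Elsewhere the level was 4.65 to 5.39. No fold is given for this probe.

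The first comparison asked how the lines differ without transfection. Because the 3 probes were undetected in Hdh7/7 cells, each difference is given as a bound, in which the brighter group's mean is set against the higher of the dim probe's own level and the lowest level detected on that array. Hdh109/109 cells exceeded Hdh7/7 cells in the Prl2c3 level by at least 7.68-fold (difference of the fitted log2 levels 3.72 ± 0.25, SE), Prl2c4 at least 4.3-fold (3.04 ± 0.27) and Prl2c2 at least 2.91-fold (2.76 ± 0.16). Hdh109/109 arrays were above Hdh7/7 arrays for these 3 probes, as for 35.6% of all probes tested. The bounds depended on how background was handled. Without background correction they were 3.74-fold for Prl2c3, 2.36-fold for Prl2c4 and 1.79-fold for Prl2c2, and with an offset of 50 they were 5.21-fold, 3.08-fold and 2.21-fold.

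With the empty vector the lines lay closer. Hdh109/109 cells exceeded Hdh7/7 cells in the Prl2c3 level by at least 1.06-fold (log2 difference 1.4 ± 0.25, SE), and with DNRest at least 1.77-fold (1.28 ± 0.25). For Prl2c4 the fitted differences were 0.91 ± 0.27 and 0.77 ± 0.27, with no fold over the lowest detected level. For Prl2c2, undetected in both lines after transfection, they were 0.19 ± 0.16 and 0.47 ± 0.16. Arrays of the lines did not overlap for Prl2c3 and Prl2c4 in both states, nor for Prl2c2 with DNRest. The share of all probes with both Hdh109/109 arrays above was 34.4% with the empty vector and 36.5% with DNRest.

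**Figure D2:**
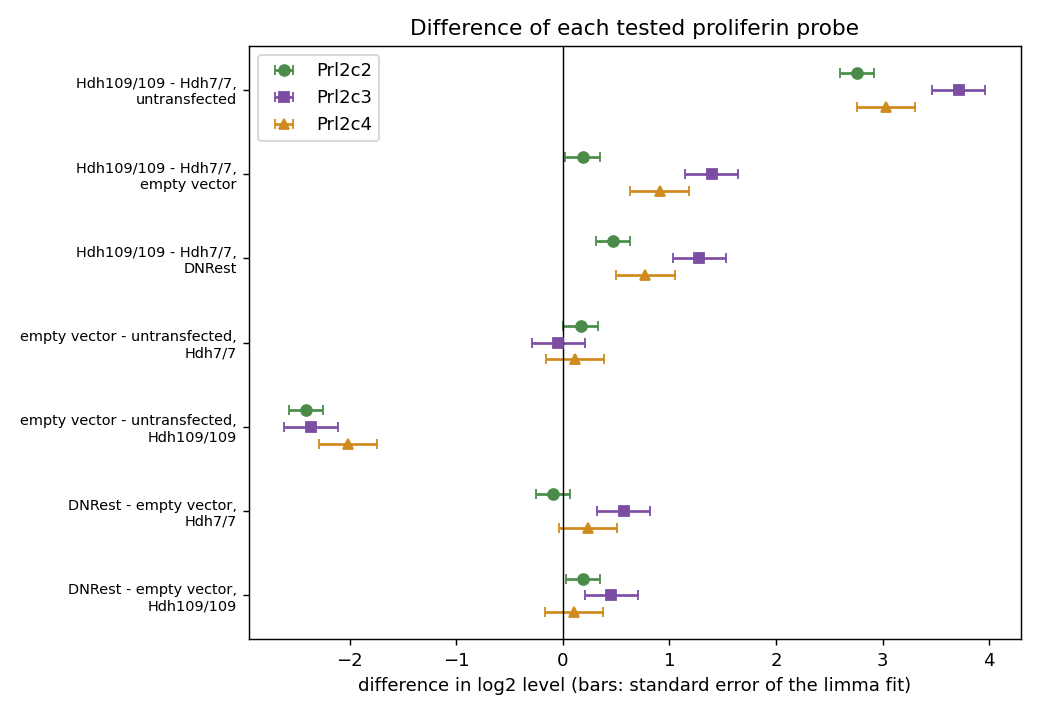
Difference in log2 level (horizontal axis) of Prl2c2, Prl2c3 and Prl2c4 in each of the 7 comparisons (vertical axis); bars are standard errors of the limma fit over 12 arrays. The values lie between 2.76 and 3.72 for the untransfected lines, between -2.41 and -2.02 for the empty vector in Hdh109/109 cells, and closer to 0 in the others.

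The second comparison set the empty vector against no transfection in each line. In Hdh109/109 cells the Prl2c3 level was 5.15-fold lower with the empty vector (log2 difference -2.36 ± 0.25, SE), and both arrays of each group detected the probe. Prl2c4 was 4.05-fold lower (-2.02 ± 0.27), with 1 empty vector array undetected, and Prl2c2 was at least 3.12-fold lower (-2.41 ± 0.16), a bound of 1.84-fold without background correction. Both empty vector arrays lay below both untransfected arrays for all 4 probes, Prl2c5 included, as they did for 23% of the probes tested. Prl2c3, which was detected on all 4 of these arrays, had the difference of rank 2 from the bottom of 15224 probes, a description only since the genes were chosen by their levels here. Without background correction its difference was -1.62. The size also depended on the empty vector replicates, with -2.79 for Prl2c3 without replicate 1 and -1.94 without replicate 2.

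In Hdh7/7 cells the same comparison gave differences near 0 for probes that were undetected on both sides. They were 0.17 ± 0.16 for Prl2c2, -0.04 ± 0.25 for Prl2c3 and 0.11 ± 0.27 for Prl2c4 (log2 difference, SE). Both empty vector arrays were above for Prl2c4, as for 27% of the probes tested. Undetected probes give no measure of a change below background, so the response in the 2 lines cannot be set against each other.

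DNRest was compared with the empty vector in each line, a comparison that shares the empty vector arrays with the previous one. In Hdh109/109 cells the differences were 0.45 ± 0.25 for Prl2c3, 0.1 ± 0.27 for Prl2c4 and 0.19 ± 0.16 for Prl2c2. The arrays overlapped for Prl2c3 and Prl2c4, while both DNRest arrays were above for the undetected Prl2c2 probe, as for 21.5% of the probes tested. The differences rested on the empty vector arrays. The Prl2c3 difference was 0.03 without empty vector replicate 2 and 0.88 without replicate 1, and the Prl2c4 difference turned to -0.31 without replicate 2 and was 0.51 without replicate 1. In Hdh7/7 cells Prl2c3 was undetected with detection p of 0.0422 and 0.0472 on the DNRest arrays, and its fitted difference was 0.57 ± 0.25, with both DNRest arrays above, as for 19.6% of the probes tested. The others were 0.23 ± 0.27 (Prl2c4) and -0.09 ± 0.16 (Prl2c2).

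The 3 detected probes varied together over the 12 arrays. Pearson's r was 0.978 between Prl2c3 and Prl2c4, 0.953 between Prl2c2 and Prl2c4 and 0.913 between Prl2c2 and Prl2c3. Without the untransfected Hdh109/109 arrays it was 0.932, 0.864 and 0.801 over 10 arrays. On those 10 arrays Prl2c2 was never detected, and Prl2c4 was detected on 1 array of each transfected Hdh109/109 group. The values of 0.864 and 0.801 thus rest on Prl2c2 levels at background and give no measure of its RNA there. Prl2c5, undetected on all 12 arrays, correlated with the 3 at 0.377 to 0.528, and at -0.328 to 0.0418 without the untransfected Hdh109/109 arrays. The points share arrays and groups and the probes may share targets, so r is a description.

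The level of the 3 probes in untransfected Hdh109/109 cells was also set against all other arrays. Both untransfected Hdh109/109 arrays were above the other 10 for 973 of the 15224 probes tested (6.39%), but by more than 1 log2 unit for only 6. Of these, 3 were Prl2c2, Prl2c3 and Prl2c4, with gaps of 1.99, 1.82 and 1.48. Their place among the 6 follows from how they were chosen, and the Prl2c2 gap is taken against undetected levels. The other 3, named after their values were seen, were Selp, the adhesion molecule P-selectin (1.38), Wnt2, a secreted signalling protein (1.17), and Ppbp, a platelet chemokine precursor (1.01). For Prl2c5 the gap was -0.37.

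By Pearson's r over 12 arrays, the 8 genes most like Prl2c3 among 4423 candidates were Rp9, Nr2c2ap, Ppbp, Sec22c, Lsm8, Prrx1, Foxp1 and Rpl14, with r from 0.96 down to 0.933. Ppbp came closest to proliferin in size. Its log2 level was 8.13 and 8.38 in untransfected Hdh109/109 cells, 6.78 and 6.06 after the empty vector, 7.12 and 6.57 after DNRest, and it was undetected on all 6 Hdh7/7 arrays. It was at least 5.24-fold higher in untransfected Hdh109/109 than in Hdh7/7 cells (limma, adjusted p = 2.19e-05) and fell with the empty vector by 1.83 ± 0.3 log2 (adjusted p = 0.0107). Prrx1, a transcription factor of mesenchymal cells, was detected on all arrays, with group means of 9.85 in untransfected Hdh109/109 cells, 8.89 and 9.05 in transfected ones and 7.57 to 7.93 in Hdh7/7 cells. The splicing-related Lsm8 and the ribosomal protein gene Rpl14 were detected on all arrays and also highest in untransfected Hdh109/109 cells, with Rpl14 at 9.29, 8.6 and 8.4 in untransfected, empty vector and DNRest Hdh109/109 cells. These genes were chosen for their likeness, so their p-values support nothing about proliferin.

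**Figure D3:**
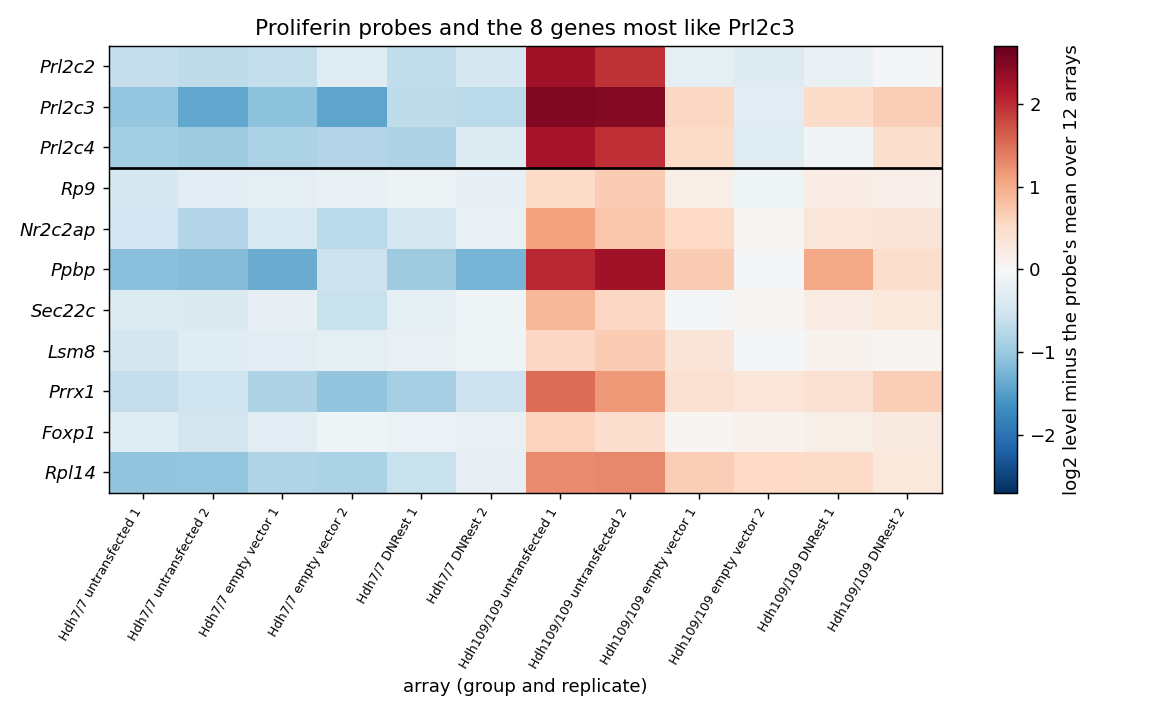
Log2 level of each probe minus its own mean over 12 arrays (colour) for 3 proliferin probes, above the line, and the 8 genes most like Prl2c3, below it; columns are arrays. Ppbp shows the widest span of the 8, and both untransfected Hdh109/109 columns are the reddest for the proliferin probes.

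The rest of the prolactin family was not detected. Of 24 family genes listed besides the members 20 had a probe, and none of the 20 was detected on any array, so none was tested. They included prolactin itself (Prl), growth hormone (Gh), the placental lactogen gene Prl3d2, proliferin-related protein Prl7d1 and the decidual family member Prl8a2. Markers of trophoblast, the main proliferin source in the animal, were also nearly absent. Of 17 with a probe, 15 were detected on no array, among them Hand1, Tpbpa, Ascl2 and Eomes, which are needed for or define trophoblast lineages. The 2 tested were the transcription factor Gata2 (log2 difference between untransfected lines 0.65 ± 0.13, SE, adjusted p = 0.0043, limma, a call lost with median scaling) and the placental protein gene Plac1 (at least 1.2-fold higher, adjusted p = 0.0212). The summed normalised level of the 17 probes was 868 to 903 in untransfected Hdh109/109 cells, 818 to 932 in transfected ones and 690 to 909 in Hdh7/7 cells. These sums include the background of the 15 probes detected on no array, so they are no measure of trophoblast RNA.

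**Figure D4:**
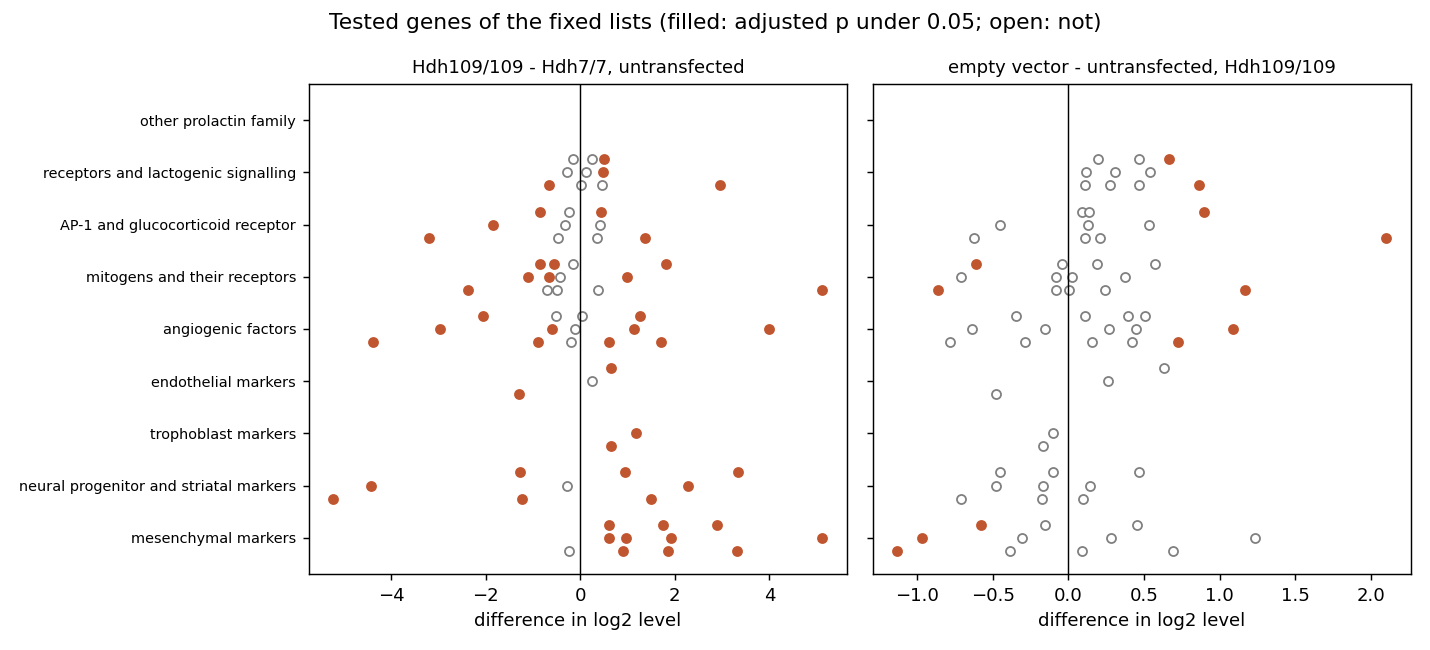
Difference in log2 level (horizontal axis) of each tested gene of 9 lists (vertical axis) between untransfected lines (left) and between empty vector and untransfected Hdh109/109 cells (right). Filled points passed an adjusted p under 0.05 and open points did not; no other prolactin family gene was tested, so its row is empty, and 10 of 11 mesenchymal markers are filled and right of 0 on the left.

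Of 12 genes listed for proliferin's receptor and lactogenic signalling, 11 had a probe and 10 passed the detection filter. Igf2r was detected on all 12 arrays, with log2 levels of 8.84 in untransfected Hdh109/109 and 8.58 in untransfected Hdh7/7 cells and a difference of 0.26 ± 0.18 (adjusted p = 0.311, limma). After transfection Igf2r was 2-fold higher in Hdh109/109 cells with the empty vector (adjusted p = 0.00184) and 1.95-fold with DNRest (adjusted p = 0.00267). Igf2, the growth factor that binds the same receptor, was at least 7.15-fold higher in untransfected Hdh109/109 cells (adjusted p = 5.99e-05). Of 10 genes of this list tested, 3 were higher and 1 lower between the untransfected lines, with a median difference of 0.19 against -0.01 over all 8472 genes. Of all genes 18.1% were called higher and 20.9% lower. The called members were Igf2, the signal transducer Stat5a (0.51 ± 0.17), the cytokine-induced inhibitor Cish (0.49 ± 0.14) and the inhibitor Socs3, which was lower (-0.67 ± 0.13). Prlr, the prolactin receptor, had no probe with its symbol. With median scaling the calls of Stat5a, Cish and Socs3 were lost, and that of Stat5a also without background correction or with the replicate number as a block.

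AP-1 genes, whose products act on proliferin promoters, went both ways. Fos had log2 levels of 6.8 ± 0.01 (SD, n = 2) in untransfected Hdh109/109 cells, where proliferin was highest, and 9.99 ± 0.28 in untransfected Hdh7/7 cells, a 9.12-fold lower level (limma, adjusted p = 1.77e-06). With the empty vector Fos rose 4.28-fold in Hdh109/109 cells (adjusted p = 0.000344) and fell 5.09-fold in Hdh7/7 cells (adjusted p = 0.000315). Jun was lower in Hdh109/109 cells in all 3 states, by 1.8-fold untransfected (adjusted p = 0.00138), 1.9-fold with the empty vector and 1.52-fold with DNRest. With median scaling, which moved the median difference of all probes from 0.04 to 0.62 with the empty vector and from -0.02 to 0.17 with DNRest, only the untransfected call of Jun held. Mafk was lower too (-1.85 ± 0.24), and Atf3 at least 1.28-fold higher. Of 10 genes tested 2 were higher (Atf3 and Fosl2) and 3 lower (Fos, Jun and Mafk) between the untransfected lines, with a median of -0.28. Of all genes 18.1% were called higher and 20.9% lower. Fosl2 differed by 0.42 log2 without background correction, and its call was lost with median scaling (0.34). With the empty vector in Hdh7/7 cells 2 of the 10 were higher, Fosl1 and Maff, and 1 lower, Fos. In that comparison 6.65% of all genes were called higher and 11.3% lower. The call of Maff there was lost with median scaling. With the empty vector in Hdh109/109 cells 2 of the 10 were higher, Fos and Atf3, and none lower. There 2.42% of all genes were called higher and 0.932% lower. The probe for Nr3c1, the glucocorticoid receptor, was detected on 1 array and was not tested.

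Among mitogens and receptors, known inducers of proliferin in fibroblasts, 3 of 13 genes were higher in untransfected Hdh109/109 cells and 5 lower, with a median difference of -0.5 (-0.42 when undetected probes are set to their bound). The receptor Pdgfra was at least 29.7-fold higher (adjusted p = 1.71e-08) and the receptor Tgfbr2 3.5-fold higher (adjusted p = 5.75e-05). The ligands Pdgfb (at least 2.13-fold, adjusted p = 3.58e-05), Hbegf (2.16-fold) and Pdgfa (1.8-fold) were lower. Angiogenic factors, a class that proliferin belongs to by function, went both ways, with 5 of 14 higher, 5 lower and a median of -0.16. Both lists stand beside 18.1% higher and 20.9% lower of all genes between these lines. Adamts1, an angiogenesis inhibitor, was 15.9-fold higher and Angptl4 at least 9.67-fold lower (adjusted p = 1.11e-06 and 7.19e-09).

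In the comparison with the empty vector, where the proliferin level was lower in Hdh109/109 cells, 2.42% of genes rose and 0.932% fell. Of the 72 genes of all lists tested 7 rose and 5 fell, a description only since earlier results were known when the lists were chosen. The rises included Fos, Pdgfra (1.17 ± 0.16 log2, adjusted p = 0.0042), Angptl4 (1.09 ± 0.12, undetected on both untransfected arrays) and the signalling inhibitor Socs1 (0.86 ± 0.16). The falls were the mesenchymal genes Tagln (-1.13 ± 0.21), Prrx1 (-0.96 ± 0.18) and Acta2 (-0.58 ± 0.12), with the receptors Fgfr2 (-0.86 ± 0.13) and Tgfbr1 (-0.61 ± 0.13), with adjusted p from 0.0062 to 0.0379 in the limma fit. Of these falls only that of Tagln was still called with median scaling, which called 6 of the 72 higher and 1 lower. In Hdh7/7 cells, where proliferin was undetected, 6.65% of genes rose and 11.3% fell, with 3 and 15 of the 72, but a fit to those 4 arrays alone called 1 probe in place of 2387. Median scaling called 1 higher and 24 lower of the 72 there, and 52 probes higher and 3201 lower in place of 940 and 1447. DNRest against the empty vector called none of the 72 in either line (limma, with 4 and 8 at an unadjusted p under 0.05), against 0.118% higher and 0% lower of all genes in Hdh7/7 and 0.165% higher and 0.0118% lower in Hdh109/109 cells. After transfection the lines differed in 27 higher and 19 lower of the 72 with the empty vector (23.9% and 22.5% of all genes) and in 30 higher and 17 lower with DNRest (19.9% and 19.3%). The balance depended on the scaling. With median scaling the empty vector lines differed in 40 higher and 10 lower of the 72, and over all probes in 6676 higher and 661 lower in place of 3490 and 3085.

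Some cell type markers differed between the lines as well. Between the untransfected lines 18.1% of all genes were called higher and 20.9% lower. Of 11 mesenchymal markers tested 10 were higher in untransfected Hdh109/109 cells and none lower, with a median of 1.75. With median scaling 8 were called, without S100a4 and Twist1. Col1a2, a collagen chain, was at least 15.1-fold higher and Col3a1 9.93-fold. Their summed level over 14 probes was 37740 to 37880 in untransfected and 30980 to 34570 in transfected Hdh109/109 cells, and 14310 to 19120 in Hdh7/7 cells. Of 9 neural progenitor and striatal markers tested 4 were higher and 4 lower, with Sox2 and Pax6, neural stem cell factors, at least 26.5-fold and 14.2-fold lower and Dlx2, a factor of the developing striatum, at least 5.83-fold higher. Of the striatal markers listed, Ppp1r1b, Drd1, Drd2 and Bcl11b were detected on no array. Penk and Foxp1 of the same list were among the 4 called higher in untransfected Hdh109/109 cells. Foxp1 differed by 0.94 ± 0.13 log2 (limma, adjusted p = 0.000381). The Penk difference was 1.16 log2 without background correction and 2.42 with median scaling. Of 11 endothelial markers 8 were detected on none, Pecam1 and Cdh5 among them, and of the 3 tested 1 was higher and 1 lower. The part of the mesenchymal difference in the proliferin levels was not tested.

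The genes next to the proliferins on chromosome 13 were looked up after the values were seen. Of the 3 protein-coding neighbours on either side, 5 had a probe and 3 were tested. Gpr137b, the nearest of these 3, a lysosomal membrane protein, differed by -0.2 ± 0.14 between the untransfected lines (limma, adjusted p = 0.289). Nid1, a basement membrane protein, was 2.3-fold higher in untransfected Hdh109/109 cells (adjusted p = 0.00043), and with the empty vector it differed there by -0.34 ± 0.17 (adjusted p = 0.313). Lgals8, a galectin, differed by -0.17 ± 0.21 between the untransfected lines (adjusted p = 0.564) and rose by 0.92 ± 0.21 with the empty vector in Hdh109/109 cells (adjusted p = 0.0452).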

How the data were processed

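RNA of 12 samples was measured on Illumina mouse BeadChips. The deposited table holds unnormalized linear bead intensity and, per the file headers, a detection p-value for each of 44505 probes and array. The submitters' processing notes name limma with no role. The series matrix was not used. No slide is named, so no slide block was run.

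The neqc function of limma 3.58.1 (R 4.3.3) corrected background from detection p-values with an offset of 16, then quantile-normalized and took log2. Probes with detection p under 0.01 on at least 2 arrays were tested (15224), by a linear model with 1 mean per group over 12 arrays (6 residual degrees of freedom, eBayes). A two-sided p-value, adjusted by Benjamini-Hochberg over the 15224 probes, was called under 0.05. The number of arrays limits the precision. Gene names came from the platform annotation (28471 probes with 1 symbol, 10 with several, 16024 unnamed). Where a gene had several probes, the brightest on average stood for it. The fit was tested on simulated data.

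The members and 9 gene lists (148 entries) were chosen with earlier results of these data known. Named genes were all member probes, up to 6 called genes per list by size of the genotype difference, up to 4 per list for transfection, Igf2r, Prlr, Jun, Fos and Nr3c1, and the 8 genes most like the brightest member probe among genes spanning at least 1 log2 unit. Chromosomal neighbours were added later.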

Additional observations from a re-analysis of the deposited data

Results flagged for a closer look

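Some values had opposite signs in the 2 lines, with no overlap of the arrays compared, and in no case was the difference between the lines tested. The share of all probes with this pattern in both lines was not counted. Within 1 line, 16.3% to 31.1% of the probes tested had no overlap in a given direction. For proliferin the opposite signs include levels at background and give no measure of opposite responses. With the empty vector the Prl2c4 difference was 0.11 log2 in Hdh7/7 cells, where the probe was undetected, and -2.02 in Hdh109/109 cells. With DNRest the difference of Prl2c5, undetected on all arrays, was -0.34 in Hdh7/7 and 0.25 in Hdh109/109 cells. Among detected genes, with the empty vector Fos differed by -2.35 in Hdh7/7 and 2.1 in Hdh109/109 cells. The angiogenesis inhibitor gene Thbs2 differed by -0.48 and 0.72, and Lgals8 by -0.72 and 0.92. The call of Thbs2 in Hdh109/109 cells was lost with median scaling. A fit to the compared Hdh7/7 arrays alone called 1 probe in all.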

How the results depend on the processing

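The direction of every Prl2c3 difference over 1 log2 unit was the same under all alternatives run, but its size depended on background handling. Between the untransfected lines, with the empty vector and with DNRest the difference was 2.25, 0.65 and 0.62 log2 without background correction and 2.82, 0.86 and 0.88 with an offset of 50; for the empty vector in Hdh109/109 cells it was -1.62 and -1.98. Without background correction DNRest in Hdh7/7 cells gave 0.26. Median scaling gave 1.72 between empty vector lines and 0.16 for DNRest in Hdh109/109 cells. No proliferin probe was detected on all 12 arrays, so that filter gave no value for them. The adjusted calls over all probes numbered 5422, 6575 and 5596 between the lines (untransfected, empty vector, DNRest), 2387 and 444 for the empty vector and 15 and 21 for DNRest (Hdh7/7, Hdh109/109). For the empty vector in Hdh109/109 cells they numbered 922 without background correction, 687 with an offset of 50, 698 among probes detected on all arrays, 225 with the compared groups alone and 235 without the 3 arrays of median signal over 100, an alternative chosen after seeing the data. These last 2 settings gave 1 and 737 for the empty vector in Hdh7/7 cells, 0 and 8 for DNRest in Hdh7/7 cells and 13 and 11 in Hdh109/109 cells. The compared groups alone gave 3391 between empty vector lines. Detection on all arrays gave 4 and 11 for DNRest, and no background correction 33 in Hdh109/109 cells. Median scaling gave 3242 calls between untransfected lines, and between empty vector lines 6676 higher and 661 lower against 3490 and 3085. For the empty vector it gave 52 higher and 3201 lower in Hdh7/7 cells against 940 and 1447, and 290 and 30 in Hdh109/109 cells against 298 and 146. With DNRest it gave 3450 calls between lines, 2491 higher and 959 lower against 2767 and 2829, and in Hdh109/109 cells 117, 15 higher and 102 lower against 20 and 1. It also turned the empty vector genotype differences of Tgfbr1 (0.20), Angpt2 (0.22), Serpinf1 (0.12) and Map2 (0.078). Leaving out 1 array, with a lone array assumed to vary like the other groups, gave 3746 to 3933, 4868 to 6815 and 3485 to 3685 calls between lines, 703 to 3834 and 172 to 1090 for the empty vector and 7 to 1129 and 11 to 268 for DNRest. The lowest and highest for the empty vector in Hdh109/109 cells came without its empty vector replicates 2 and 1. The Prl2c3 difference ranged over 3.53 to 3.9, 0.97 to 1.82, 1.2 to 1.36, -0.23 to 0.14, -2.79 to -1.94, 0.41 to 0.73 and 0.028 to 0.88 in the same order. The replicate numbers did not pair the arrays (r from -0.45 to 0.36 over 15 pairs of groups, 2 above 0.1); with the replicate block the calls were 5040, 6193, 5217, 1996, 330, 15 and 18. The cause of these changes was not tested. Of 516 list gene values under alternatives 50 lost their call with the sign unchanged, and 4 more changed sign. Detection p-values step by 1 in 1610, and undetected probes carry no measure of a change.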
